A study of Homo sapiens with 18 samples.

Results

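The 30 genes described here encode enzymes and regulators of cholesterol and fatty acid synthesis. They were taken by symbol from a list of these pathways, with no threshold on measured values, but with earlier results of these data known. All 30 were found among the 60642 gene symbols of the count table. The sterol arm holds 21 of them and the fatty acid arm 9, and the arms are described apart. The list does not hold every enzyme of either pathway.

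RNA sequencing counts were examined in 18 libraries, 3 in each of 6 groups, from HT-29 iZEB1 and SW620, both established human colorectal cancer lines. HT-29 iZEB1 carries a ZEB1 gene that is expressed on addition of doxycycline (DOX), and ZEB1 is a transcription factor that represses epithelial genes. RepSox, an inhibitor of the TGF-β type I receptor ALK5, was added at 10 µM for 24 h, with DMSO as its vehicle. DOX was added at 1 µg per ml, for 24 h by the treatment protocol and 48 h by the design text of the series. The HT-29 iZEB1 groups were DMSO without DOX, RepSox without DOX, DMSO with DOX and RepSox with DOX, and the SW620 groups were DMSO and RepSox, with no inducer. No group of HT-29 cells without the inducible gene was given DOX, so an effect of the drug and an effect of ZEB1 cannot be told apart. The labels do not say whether iZEB1 is 1 clone, nor whether replicates are separate cultures, so that p-values measure the spread between libraries, which may be technical.

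Cholesterol is built from acetyl-CoA through mevalonate, isoprenyl units and squalene, which is closed to lanosterol and trimmed to cholesterol in the endoplasmic reticulum. Fatty acids share the acetyl-CoA pool, and are built as palmitate, then elongated and desaturated. SREBP transcription factors control both arms: when membrane sterol is low, SCAP carries their precursors to the Golgi for cleavage, and INSIG proteins hold them back when sterol is plentiful. SREBP2, from SREBF2, acts mostly on sterol genes, and SREBP1, from SREBF1, mostly on fatty acid genes. Both arms supply the membranes of dividing cells, epithelial and tumour cells included.

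Promoters of 4 genes are printed as examples: MVK and EBP fell with DOX, TM7SF2 did not, and SREBF2 encodes the main sterol regulator. Each runs from 250 bases before to 50 bases after a transcript start, on the plus strand of GRCh38.p14, from RefSeq. The positions are chr12:109573544-109573843 for MVK, chrX:48521558-48521857 for EBP, chr11:65111622-65111921 for TM7SF2 and chr22:41832855-41833154 for SREBF2. Capitals mark CCAAT on either strand in MVK and EBP, CACCTG on either strand in TM7SF2 and TCACNCCAC in SREBF2. Only 1 string is marked per gene: EBP also holds 1 CACCTG, and TM7SF2 and SREBF2 hold 1 CCAAT each, all in lower case. The capitals therefore do not show a split of strings between genes that fell and genes that did not.
MVK: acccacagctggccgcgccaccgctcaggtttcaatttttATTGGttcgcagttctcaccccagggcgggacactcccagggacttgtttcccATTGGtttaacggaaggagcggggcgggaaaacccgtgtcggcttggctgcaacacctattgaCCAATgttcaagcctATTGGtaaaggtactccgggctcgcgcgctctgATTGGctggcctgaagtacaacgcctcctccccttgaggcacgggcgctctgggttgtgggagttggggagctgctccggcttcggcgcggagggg
EBP: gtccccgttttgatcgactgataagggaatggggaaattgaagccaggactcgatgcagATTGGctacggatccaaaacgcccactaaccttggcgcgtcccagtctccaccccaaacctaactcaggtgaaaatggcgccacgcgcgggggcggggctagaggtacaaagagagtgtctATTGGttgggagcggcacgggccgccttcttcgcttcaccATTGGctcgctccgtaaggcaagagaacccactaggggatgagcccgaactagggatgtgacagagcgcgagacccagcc
TM7SF2: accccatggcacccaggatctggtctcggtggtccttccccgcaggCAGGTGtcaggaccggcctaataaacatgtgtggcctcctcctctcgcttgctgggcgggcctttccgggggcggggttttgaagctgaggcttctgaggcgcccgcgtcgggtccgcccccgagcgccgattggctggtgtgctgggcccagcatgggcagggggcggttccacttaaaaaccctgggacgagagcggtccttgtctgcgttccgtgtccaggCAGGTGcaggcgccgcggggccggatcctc
SREBF2: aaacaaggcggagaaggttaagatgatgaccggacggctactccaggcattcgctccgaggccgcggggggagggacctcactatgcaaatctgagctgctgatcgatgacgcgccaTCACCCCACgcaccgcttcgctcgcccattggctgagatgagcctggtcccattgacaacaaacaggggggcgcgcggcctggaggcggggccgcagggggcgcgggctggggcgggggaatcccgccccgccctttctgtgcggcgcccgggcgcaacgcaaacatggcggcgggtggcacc

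CCAAT is the box bound by NF-Y, a frequent partner of SREBP, CACCTG is an E-box of the kind ZEB1 binds, and TCACNCCAC is the classical sterol regulatory element. None of the 3 strings contains another, and both strands were searched. RefSeq promoters were found for 26 of the 30 members. CCAAT stood in at least 1 promoter of 16 of 18 sterol members (88.9%) and 5 of 8 fatty acid members (62.5%), against 39.7% of 27305 genes and 34.6% of 35116 promoters. MVK held 5 copies and EBP 3. CACCTG stood in 7 of 26 members (26.9%), namely CYP51A1, TM7SF2, MSMO1, HSD17B7, EBP, SC5D and ACACA, against 24.1% of all genes and 20.6% of all promoters. TCACNCCAC stood in 1 of 26, SREBF2, against 1.39% of all genes and 1.13% of all promoters. These are letter matches in a short window.

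Library totals ran from 36511596 to 39792807 counts. ZEB1 checks the labels, and levels are given as CPM, counts per 1000000 counts of the library after TMM scaling, which corrects for a few very abundant genes. ZEB1 stood at 7.90, 7.38 and 10.36 CPM in the libraries with DMSO alone and at 372, 385 and 376 CPM with DOX and DMSO. In the libraries labelled DOX and RepSox it stood at 14.6, 15.9 and 17.4 CPM, and with RepSox alone at 5.04, 5.38 and 5.73 CPM. ZEB1 was thus 44.3-fold higher with DOX in DMSO, but 2.98-fold higher with DOX under RepSox (adjusted p = 1.37e-07), so that the group labelled DOX and RepSox has little of the ZEB1 that its label implies. Every comparison with that group is also one between different ZEB1 levels. SW620 had 19.7 to 24.6 CPM of ZEB1. Of 10 colon epithelium markers, 7 to 9 reached 1 CPM in every group, with KRT8 on top, and in SW620 3 of the 10 were below 1 CPM. All 8 fibroblast, 6 leukocyte, 5 hepatocyte and 5 adipocyte markers were below 1 CPM in HT-29 iZEB1, and of 5 endothelium markers only TEK was above it, with the list's sum at 2.29 to 3.37 CPM with DMSO alone and 10.3 to 11.1 CPM with DOX and DMSO. In SW620 2 of the 8 fibroblast markers, led by LUM, were above 1 CPM, and the list summed to 6.66 to 12.9 CPM. There, PECAM1 of the endothelium list stood at 2.01 CPM with DMSO and 3.34 CPM with RepSox, CIDEC of the adipocyte list at 1.73 and 0.658 CPM, and no other marker of these lists or of the leukocyte and hepatocyte lists reached a mean of 1 CPM.

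Unless said otherwise, a gene is called higher or lower at an adjusted p below 0.05 in edgeR's quasi-likelihood test, adjusted over all genes tested. All 30 members passed the filter on low counts in each fit. The arms differ widely in level between their own members. Per kilobase of exon, in the libraries with DMSO alone, the sterol arm ran from 3.33 CPM per kb for CYP51A1 to 136 ± 8.7 (SD, n = 3) for SQLE, squalene epoxidase. FDFT1, squalene synthase, followed at 83.3 ± 1.8 CPM per kb and DHCR7, 7-dehydrocholesterol reductase, at 79.2 ± 4.5 (SD, n = 3), a pair that did not differ beyond its spread. In the fatty acid arm, SCD, the stearoyl-CoA desaturase, led at 295 ± 23 CPM per kb, ahead of ACLY, the ATP citrate lyase, at 63.3 ± 0.28, FASN, fatty acid synthase, at 45.2 ± 1.9, and ACACA, acetyl-CoA carboxylase, at 33.0 ± 1.7 (SD, n = 3). FADS2, the Δ6 desaturase, was lowest at 0.0478 CPM per kb. CYP51A1 is uncertain: it shares 79.4% of its exonic bases with another annotated gene of the same strand, and its pseudogenes held 11.9% as many counts as it did. For HSD17B7 the pseudogene counts came to 8.04% of its own. ACAT2, MVK, IDI1, FDPS and SREBF1 are among the members that overlap exons of genes on the opposite strand, and with the strand setting of the counting unknown, reads of these stretches cannot be assigned.

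**Figure D1:**
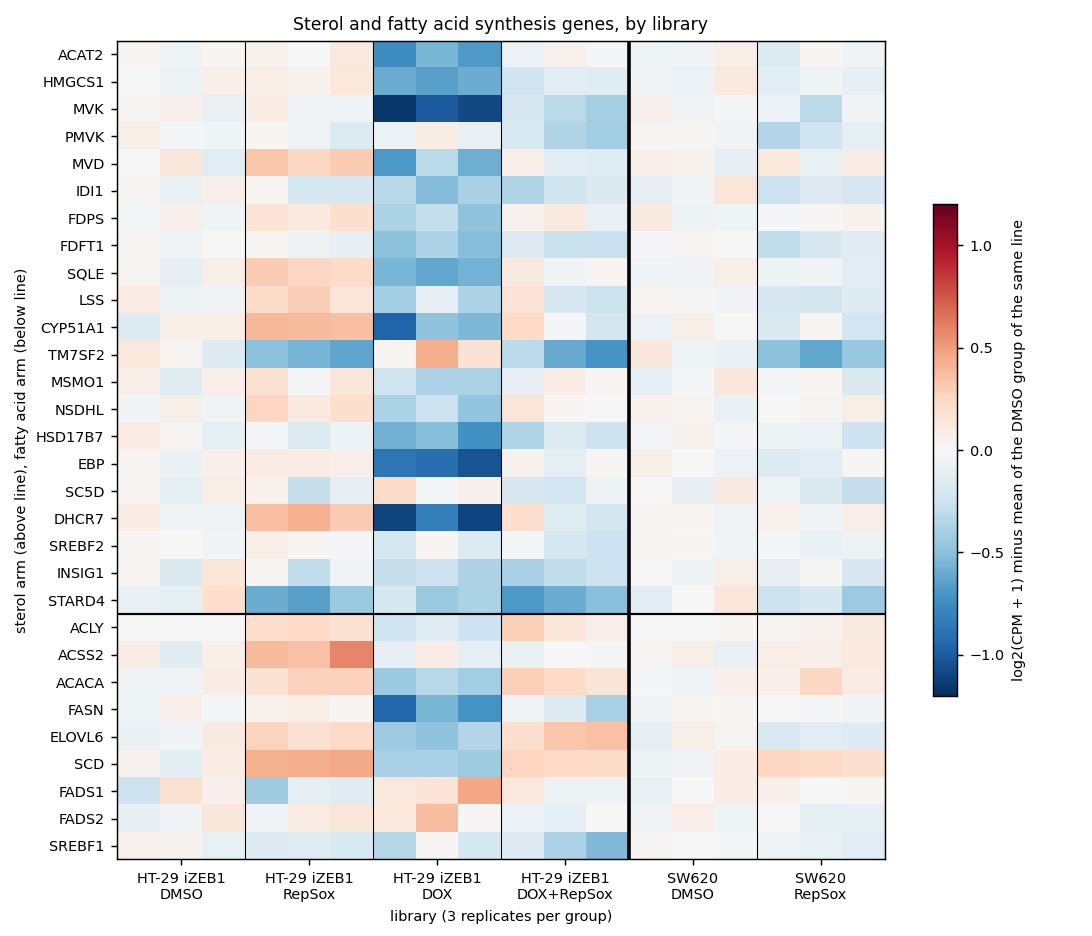
Level of each of the 30 genes (rows) in each of the 18 libraries (columns), as log2(CPM + 1) minus the mean of the 3 DMSO libraries of the same line. Colour runs from blue (lower) to red (higher). The 3 columns with DOX and DMSO are blue over most sterol rows, TM7SF2 and SC5D excepted, and the fatty acid rows ACSS2, FADS1 and FADS2 depart from the blue as well.

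The first comparison asked how the arms stood in HT-29 iZEB1 after DOX, both groups being in DMSO. Of the 21 sterol members, 17 fell and the other 4, PMVK, TM7SF2, SC5D and SREBF2, did not pass the test. The median log2 fold change of the arm was -0.41, from -1.13 for MVK to 0.23 for TM7SF2. Over all 16978 genes tested, 21.1% were called lower and 19.2% higher, with a median of 0.0020. The falls ran along the whole pathway: 7 of 8 members from acetyl-CoA to squalene, 8 of 10 from squalene to cholesterol, and 2 of 3 among regulators and carrier.

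MVK, mevalonate kinase (chromosome 12, 109573255 to 109598117, plus strand, GRCh38), fell most. It stood at 30.1, 30.9 and 27.7 CPM with DMSO alone and at 12.7, 14.3 and 13.4 CPM with DOX and DMSO, 2.19-fold lower (log2 fold change -1.13, SE 0.083, adjusted p = 3.11e-09). The highest library with DOX was thus well below the lowest with DMSO alone. DHCR7 (chromosome 11, 71428193 to 71452868, minus strand), which makes the last double-bond reduction of one branch to cholesterol, stood at 351, 319 and 319 CPM with DMSO alone and at 152, 187 and 153 CPM with DOX. It was 2.01-fold lower (SE 0.097 on the log2 scale, adjusted p = 1.27e-07). EBP (chromosome X, 48521158 to 48528716, plus strand), a sterol isomerase near the end of the route, went from 28.7, 26.7 and 29.5 CPM to 15.1, 14.7 and 13.3 CPM, 1.97-fold lower (log2 -0.98, SE 0.078, adjusted p = 1.01e-08). MVK and DHCR7 were the only members called at 2-fold or more, and for MVK, DHCR7 and EBP no DOX library reached the range of DMSO alone.

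The other early enzymes fell less than MVK. ACAT2, which condenses acetyl-CoA units, fell 1.58-fold and HMGCS1, the HMG-CoA synthase, 1.53-fold, the latter from 155, 148 and 162 CPM to 102, 98.0 and 102 CPM. MVD fell by 0.54 on the log2 scale, IDI1 1.33-fold, FDPS 1.30-fold and FDFT1 1.37-fold. SQLE, the epoxidase that acts on squalene, fell 1.49-fold, from 600, 543 and 614 CPM to 400, 379 and 394 CPM, with no overlap. Of the later enzymes, CYP51A1, the lanosterol demethylase, fell 1.65-fold (SE 0.14 on the log2 scale) and HSD17B7, a sterol ketoreductase, 1.57-fold. NSDHL fell 1.29-fold, MSMO1 1.26-fold and LSS, lanosterol synthase, 1.22-fold. INSIG1, itself an SREBP target, fell 1.23-fold and STARD4, a cytosolic sterol carrier, 1.28-fold.

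The members that did not pass stand within the same pathway. TM7SF2, a sterol C14-reductase (chromosome 11, 65111845 to 65116384, plus strand), stood at 47.8, 44.7 and 39.0 CPM with DMSO alone and at 44.3, 59.6 and 49.4 CPM with DOX (log2 0.23, SE 0.11, adjusted p = 0.109), so that the groups overlapped. PMVK, the kinase after MVK, had a log2 fold change of -0.02 (adjusted p = 0.887) and SC5D, a sterol desaturase, of 0.10 (adjusted p = 0.374). SREBF2 stood at 302, 298 and 290 CPM against 256, 303 and 264 CPM (log2 -0.11, SE 0.070, adjusted p = 0.236). The transcript of the regulator thus overlapped between the groups in which 17 members of the arm differed, but only through DOX and DMSO replicate 2. Without that library SREBF2 was called lower (log2 -0.19, adjusted p = 0.0280).

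Of the fatty acid members 5 of 9 fell with DOX: ACLY, ACACA, FASN, ELOVL6 and SCD. The other 4, ACSS2, FADS1, FADS2 and SREBF1, did not pass, and the arm's median was -0.21. FASN (chromosome 17, 82078333 to 82098332, minus strand) fell most, from 409, 443 and 418 CPM to 219, 290 and 257 CPM, 1.65-fold (log2 -0.72, SE 0.089, adjusted p = 2.91e-06). SCD (chromosome 10, 100347124 to 100364834, plus strand) went from 1628, 1445 and 1677 CPM to 1209, 1208 and 1178 CPM, 1.32-fold lower. Its groups did not overlap. ACACA fell 1.31-fold, from 416, 417 and 456 CPM to 314, 342 and 321 CPM. ELOVL6, which lengthens palmitate, fell by 0.42 on the log2 scale and ACLY 1.15-fold. ACSS2, which makes acetyl-CoA from acetate, stood at 25.7, 21.8 and 25.2 CPM against 22.5, 25.8 and 22.4 CPM (adjusted p = 0.773), and SREBF1 had a log2 fold change of -0.17 (adjusted p = 0.159).

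The 10 colon epithelium markers, a sum led by KRT8, came to 9190 to 10390 CPM with DMSO alone and to 4772 to 5266 CPM with DOX. Of the 10, 8 were called lower and 1, CDH17, higher, against 21.1% and 19.2% of all genes. Their part in the falls was not tested. In bulk RNA, fewer cells of a kind and less RNA per cell cannot be told apart. The smaller falls depended on the setting. LSS did not pass with scaling by library totals (adjusted p = 0.0791), without DOX and DMSO replicate 1 (0.114) or 3 (0.105), or without DMSO replicate 1 (0.119), and INSIG1 (0.0557) and STARD4 (0.0592) did not pass without DMSO replicate 3. ACLY did not pass with library totals (adjusted p = 0.0749). Under that scaling 59.5% of all calls were higher, against 47.6%, and TM7SF2 was called higher (log2 0.30, adjusted p = 0.0271), as it was without DOX and DMSO replicate 1 (log2 0.32, adjusted p = 0.0333). Without DOX and DMSO replicate 2, SREBF2 (log2 -0.19, adjusted p = 0.0280) and SREBF1 (log2 -0.27, adjusted p = 0.0119) were called lower.

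**Figure D2:**
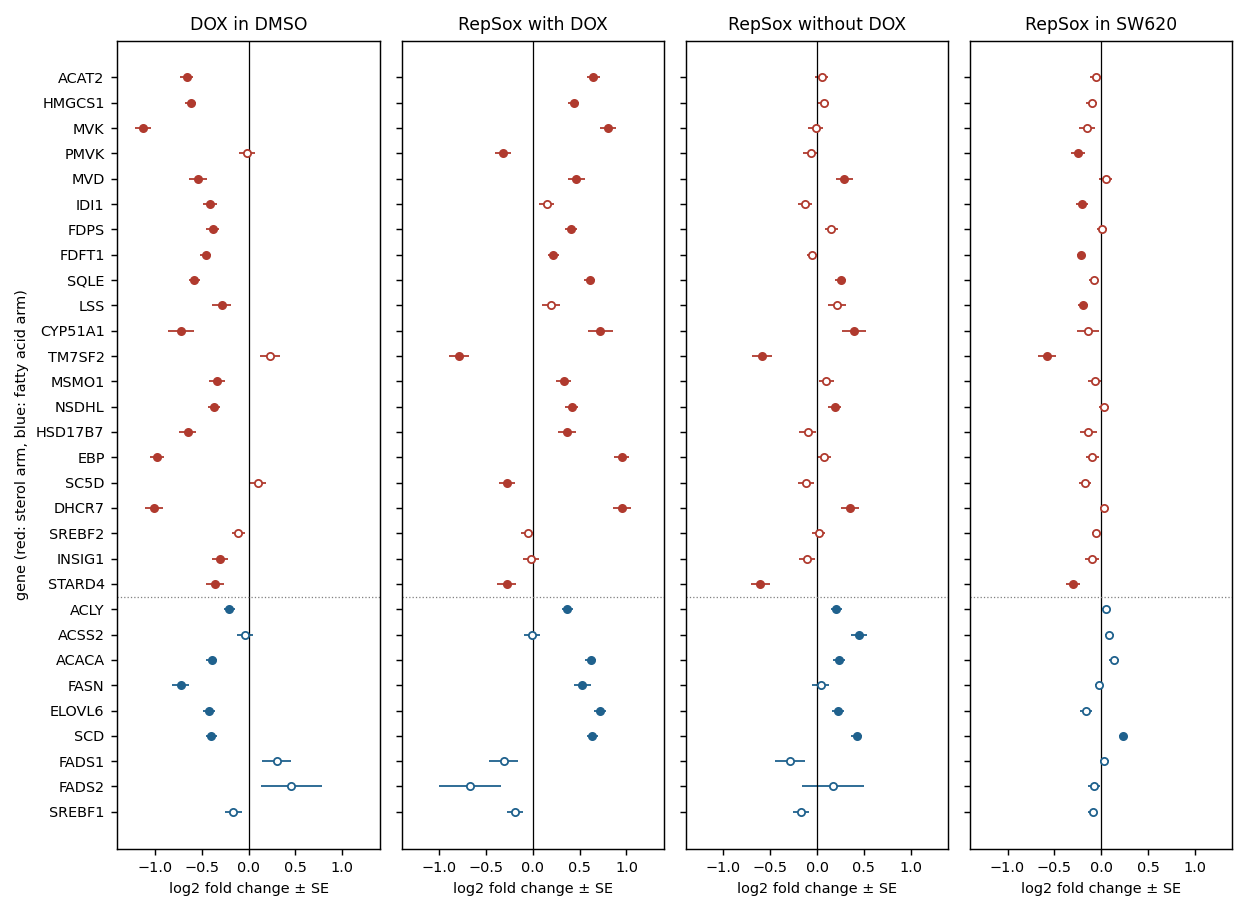
Log2 fold change with SE (horizontal axis) of the 30 genes (rows) in 4 comparisons with 3 libraries in each group, from the fits over all genes. Filled points passed an adjusted p below 0.05. Red points are the sterol arm and blue points the fatty acid arm. Most points lie left of 0 with DOX in DMSO, from -1.13 for MVK upward, while RepSox in SW620 leaves most points near 0, with TM7SF2 at -0.58.

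The next comparison set the libraries labelled DOX and RepSox against those with DOX and DMSO. The DOX and DMSO libraries are the baseline here and the treated group above, so a member with high values in them would move in opposite ways in both, and the values are given side by side only. ZEB1 was 23.8-fold lower in the libraries labelled DOX and RepSox. Of the sterol members 13 were higher, 4 were lower and 4 did not pass, with a median of 0.37. Over all genes 26.8% were called higher and 25.5% lower, with a median of -0.0082. The 13 were ACAT2, HMGCS1, MVK, MVD, FDPS, FDFT1, SQLE, CYP51A1, MSMO1, NSDHL, HSD17B7, EBP and DHCR7.

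EBP and DHCR7 moved most. EBP stood at 29.1, 26.0 and 28.6 CPM in the libraries labelled DOX and RepSox, 1.93-fold above DOX and DMSO (log2 0.95, SE 0.078, adjusted p = 9.07e-09). Its 3 values lie within or next to those of DMSO alone. DHCR7 stood at 378, 297 and 282 CPM, 1.94-fold above (log2 0.95, SE 0.097, adjusted p = 1.48e-07), with replicate 1 well above the other two. MVK reached 25.6, 23.3 and 22.1 CPM, 1.75-fold above DOX and DMSO but below each library with DMSO alone. CYP51A1 was 1.65-fold, ACAT2 1.57-fold and SQLE 1.52-fold higher, SQLE at 628, 573 and 597 CPM. HMGCS1 was 1.35-fold and FDFT1 1.17-fold higher.

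The 4 sterol members that were lower were TM7SF2, PMVK, SC5D and STARD4. TM7SF2 stood at 34.8, 28.3 and 26.4 CPM, 1.73-fold below DOX and DMSO (log2 -0.79, SE 0.11, adjusted p = 8.2e-06), and below every library of both DMSO groups. PMVK was 1.25-fold lower (adjusted p = 0.00413). SC5D was 1.21-fold lower (adjusted p = 0.0125), and did not pass without the library labelled DOX and RepSox replicate 2 (0.0621) or without DOX and DMSO replicate 1 (0.0790). STARD4, at 15.6, 16.8 and 18.01 CPM, was 1.21-fold lower (adjusted p = 0.0264), and did not pass without either of these (0.0648 and 0.134) or without replicate 1 labelled DOX and RepSox (0.0868). IDI1, LSS, SREBF2 and INSIG1 did not pass, with log2 fold changes of 0.15, 0.19, -0.05 and -0.02. LSS was called without replicate 3 labelled DOX and RepSox (adjusted p = 0.0386) or DOX and DMSO replicate 2 (0.0140), and IDI1 without replicate 1 labelled DOX and RepSox (0.0473).

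In the fatty acid arm 5 of 9 members, ACLY, ACACA, FASN, ELOVL6 and SCD, were higher in the libraries labelled DOX and RepSox and the other 4 did not pass, with a median of 0.37. ELOVL6 stood at 123, 135 and 137 CPM, 1.64-fold above DOX and DMSO (log2 0.72, SE 0.066, adjusted p = 4.35e-08) and above every library with DMSO alone. SCD stood at 1894, 1865 and 1855 CPM, 1.55-fold above (log2 0.63, SE 0.059, adjusted p = 4.52e-08). ACACA stood at 523, 508 and 479 CPM, 1.53-fold above. These 3 enzymes of chain making, elongation and desaturation, and ACLY at 402, 364 and 348 CPM, lay higher in all 3 libraries than in any with DMSO alone. Of the other members of the arm, SREBF1 lay below that range and 4 overlapped with it. That contrast was not tested, and the share over all genes was not counted. FASN, at 410, 380 and 323 CPM, was 1.44-fold higher and ACLY 1.29-fold higher, and FASN reached the range of DMSO alone in replicate 1 only. ACSS2 had a log2 fold change of -0.0084 (adjusted p = 0.944). SREBF1 was at -0.19 (adjusted p = 0.0883). It was called lower without replicate 1 labelled DOX and RepSox (log2 -0.29, adjusted p = 0.00759), without DOX and DMSO replicate 1 (adjusted p = 0.0231) and with library totals (adjusted p = 0.0201). The epithelium markers summed to 10460 to 11350 CPM in the libraries labelled DOX and RepSox against 4772 to 5266 CPM. Of the 10 markers 7 were called higher and 2 lower, against 26.8% and 25.5% of all genes. Their part in the result was not tested.

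**Figure D3:**
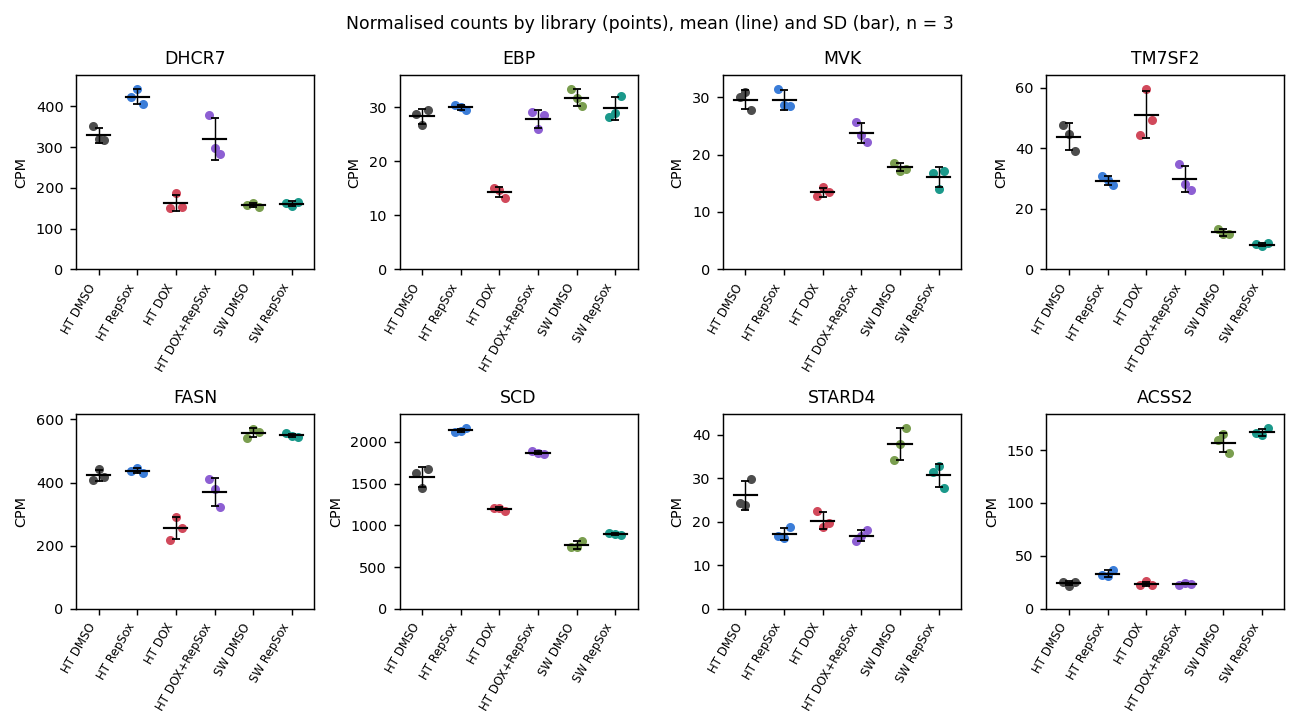
CPM of 8 members (panels) in each library (points), with the mean (line) and SD (bar) of the 3 libraries of each of the 6 groups. HT is HT-29 iZEB1 and SW is SW620. In DHCR7, EBP and MVK the libraries with DOX and DMSO are the lowest HT-29 iZEB1 points, in TM7SF2 and STARD4 the RepSox libraries are lower than DMSO, and ACSS2 stands at 147 CPM or more in SW620.

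RepSox was also compared in HT-29 iZEB1 cells without DOX, where ZEB1, low from the start, was lower with it (log2 -0.67, SE 0.11, adjusted p = 2.46e-04). In the fatty acid arm 5 of 9 members rose and 4 did not pass, with a median of 0.21. In the sterol arm 5 of 21 rose, 2 fell and 14 did not pass, with a median of 0.049. Over all genes 12.5% were called higher and 12.8% lower, with a median of -0.0076. SCD rose from 1628, 1445 and 1677 CPM to 2122, 2132 and 2165 CPM (log2 0.43, SE 0.059, adjusted p = 3.3e-05). The RepSox libraries lay close together, all above the highest DMSO library. ACSS2 rose 1.36-fold, to 31.9, 31.2 and 36.8 CPM (log2 0.45, SE 0.088, adjusted p = 9.44e-04), with no overlap. ACACA rose 1.18-fold, ELOVL6 1.17-fold and ACLY 1.15-fold, ACLY from 331, 329 and 331 CPM to 383, 390 and 375 CPM. FASN, the synthase between ACACA and ELOVL6, stood at 437, 445 and 429 CPM against 409, 443 and 418 CPM (log2 0.04, SE 0.089, adjusted p = 0.807). ELOVL6 did not pass without RepSox replicate 1 (adjusted p = 0.0763) or 3 (0.0554) or DMSO replicate 1 (0.1001) or 2 (0.0680), and ACLY without RepSox replicate 2 (0.0538).

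The sterol members that rose with RepSox alone were DHCR7, SQLE, CYP51A1, MVD and NSDHL. DHCR7 went to 423, 443 and 406 CPM, 1.28-fold higher (log2 0.36, SE 0.096, adjusted p = 0.00998), and SQLE to 725, 697 and 685 CPM, 1.19-fold higher (adjusted p = 0.00438). Neither overlapped with DMSO alone. CYP51A1 rose 1.32-fold, MVD 1.22-fold and NSDHL 1.14-fold. These last 3 calls each failed without some single library: without RepSox replicate 1 the adjusted p-values were 0.0871, 0.0931 and 0.192, so that the count of 5 came to 2. Without RepSox replicate 3 or DMSO replicate 1 it came to 2 as well, and without DMSO replicate 3 to 3. When only the compared groups were fitted, FDPS (adjusted p = 0.0239) and LSS (0.00501) were also called higher. STARD4 and TM7SF2 fell. STARD4 went from 24.4, 23.9 and 29.9 CPM to 16.8, 16.2 and 18.8 CPM, 1.52-fold lower (log2 -0.60, SE 0.10, adjusted p = 2.13e-04). TM7SF2 went to 30.8, 29.4 and 27.8 CPM (log2 -0.59, SE 0.11, adjusted p = 7.48e-04). The carrier STARD4 and the reductase TM7SF2 were thus lower with RepSox while no enzyme of the arm other than TM7SF2 was called lower. MVK and EBP, which fell with DOX, had log2 fold changes of -0.01 (adjusted p = 0.932) and 0.08 (adjusted p = 0.515).

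With RepSox present, DOX was compared in the libraries labelled DOX and RepSox against RepSox alone. No sterol member and 1 fatty acid member, ACSS2, was called by edgeR, where 0.383% of all genes were called lower and 0.0942% higher. At an unadjusted p below 0.05, 11 of 21 sterol and 3 of 9 fatty acid members were lower. The share over all genes at that threshold was not counted, so these counts have no background beside them. DESeq2 called 5 and 2 lower, and its count over all genes is given with the processing settings below. The medians were -0.18 in both arms, against 0.0034 over all genes, and 20 of 21 sterol members had a value below 0. ACSS2 stood at 22.9, 24.0 and 23.8 CPM against 31.9, 31.2 and 36.8 CPM, 1.41-fold lower (log2 -0.49, SE 0.088, adjusted p = 0.00973). It did not pass without replicate 2 labelled DOX and RepSox (adjusted p = 0.0595) or RepSox replicate 3 (0.0997). DHCR7, at log2 -0.41 (SE 0.096, adjusted p = 0.0708), CYP51A1, at -0.39, and MVD, at -0.36, had the lowest values of the sterol arm, and HMGCS1, at -0.25 (SE 0.057), was nearest to the threshold (adjusted p = 0.0627).

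This comparison turned on 1 library. Without replicate 1 labelled DOX and RepSox, 10 sterol members (HMGCS1, MVK, PMVK, MVD, FDFT1, SQLE, LSS, CYP51A1, DHCR7 and SREBF2) and 3 fatty acid members (ACSS2, FASN and SREBF1) were called lower, and the count over all genes went from 81 to 1670. DHCR7 was then at log2 -0.55 (adjusted p = 6.89e-04). Without either other library of that group, 27 and 41 genes were called in all. The mean log2 level of the sterol arm against DMSO alone was -0.11, -0.18 and -0.20 in the 3 libraries labelled DOX and RepSox, and -0.48, -0.38 and -0.49 in those with DOX and DMSO. With RepSox alone it was 0.079, -0.015 and 0.018. For the fatty acid arm it was 0.088, 0.027 and -0.021 in the libraries labelled DOX and RepSox, -0.29, -0.14 and -0.22 with DOX and DMSO, and 0.098, 0.16 and 0.17 with RepSox alone.

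Whether RepSox acted differently with and without DOX was tested as an interaction, positive where the RepSox difference was larger with DOX. Of the sterol members 8 had a positive interaction and 13 did not pass, with a median of 0.27. Of the fatty acid members 3 were positive, 1 was negative and 5 did not pass, with a median of 0.16. Over all genes 13% were positive and 9.61% negative, with a median of 0.013. With library totals 47.0% of all interaction calls were positive against 57.4%. EBP had the largest interaction (log2 0.87, SE 0.11, adjusted p = 9.12e-06), then MVK (0.82, SE 0.12, adjusted p = 3.87e-05). ACAT2 and DHCR7 both stood at 0.60, HSD17B7 at 0.47, HMGCS1 at 0.37, SQLE at 0.35 and FDFT1 at 0.27. FDFT1 (adjusted p = 0.0270) failed without any one of 5 libraries, with adjusted p-values from 0.0592 to 0.0828, and with library totals (0.0646). FDPS, IDI1 and NSDHL were called positive, and PMVK negative, only without some single library or, for FDPS, also with all 18 libraries fitted.

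In the fatty acid arm the positive members were ELOVL6 and FASN, both at 0.49, and ACACA at 0.38. ACSS2 was negative (log2 -0.46, SE 0.12, adjusted p = 0.0118): it rose with RepSox without DOX, and the libraries labelled DOX and RepSox overlapped with those with DOX and DMSO. SCD, by contrast, rose in both settings, and its interaction of 0.21 did not pass (adjusted p = 0.0819). It did pass with all 18 libraries fitted (adjusted p = 0.0464) and without DMSO replicate 2 (log2 0.27, adjusted p = 0.0184). TM7SF2, lower with RepSox in both settings, had an interaction of -0.20 (adjusted p = 0.400). Since the group labelled DOX and RepSox differs from that with DOX and DMSO in ZEB1 as well, the interaction cannot be told apart from the loss of ZEB1 transcript in that group.

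RepSox was also compared with DMSO in SW620, which has no inducible gene. Of the sterol arm 6 of 21 fell and 15 did not pass, with a median of -0.10. Of the fatty acid arm 1 of 9, SCD, rose and 8 did not pass, with a median of 0.030. Over 17147 genes 9.24% were called lower and 10.2% higher, with a median of -0.0070, and with library totals 39.5% of calls were higher against 52.5%. TM7SF2 fell most, from 13.5, 11.8 and 11.6 CPM to 8.45, 7.59 and 8.66 CPM, 1.49-fold (log2 -0.58, SE 0.093, adjusted p = 6.24e-05). The groups did not overlap. STARD4 went from 34.2, 37.8 and 41.5 CPM to 31.4, 32.9 and 27.7 CPM, 1.23-fold lower (adjusted p = 0.00446), and PMVK fell 1.18-fold, IDI1 and FDFT1 1.16-fold and LSS 1.14-fold. PMVK failed without any one of 4 libraries (adjusted p from 0.0621 to 0.139), IDI1 without any one of 3 (0.0761 to 0.125) and LSS without RepSox replicate 2 (0.0505). SCD rose from 735, 746 and 815 CPM to 912, 902 and 882 CPM, 1.17-fold (log2 0.23, SE 0.044, adjusted p = 4.62e-04). SCD thus rose and TM7SF2 and STARD4 fell with RepSox in each line tested without DOX. DHCR7 stood at 159, 162 and 153 CPM against 163, 154 and 166 CPM (log2 0.03, SE 0.045, adjusted p = 0.721). The epithelium markers rose in sum from 6242 to 6679 CPM to 9209 to 9836 CPM. Of the 8 that were tested, 5 were called higher and 1 lower, and their part in the result was not tested.

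The difference of the RepSox responses, SW620 minus uninduced HT-29 iZEB1, passed for 2 of 21 sterol members, SQLE (log2 -0.34, SE 0.079, adjusted p = 0.00507) and LSS (-0.42, SE 0.12, adjusted p = 0.0317). It passed for 2 of 9 fatty acid members, ELOVL6 (-0.39, SE 0.091, adjusted p = 0.00518) and ACSS2 (-0.37, SE 0.10, adjusted p = 0.0198). All 4 were lower in SW620. Over 19107 genes 4.99% were lower and 5.39% higher, so that the shares in the arms rest on few members. The medians were -0.17 and -0.16, against -0.021 over all genes. LSS failed without any one of 9 libraries (adjusted p from 0.0508 to 0.0872) and ACSS2 without any one of 3 (0.0628 to 0.0723). With no filter on low counts, or with only the compared groups fitted, CYP51A1 (adjusted p = 0.0208 and 0.0117) and DHCR7 (0.00354 and 0.00173) were also called lower, 4 sterol members in all. CYP51A1 was called with DESeq2 (0.0499) and without SW620 RepSox replicate 2 (0.0479) as well, and DHCR7 with library totals (0.0456). For SCD the difference was -0.20 (SE 0.075, adjusted p = 0.0888), for TM7SF2 0.0017 (SE 0.16, adjusted p = 0.999996) and for STARD4 0.29 (SE 0.14, adjusted p = 0.199).

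The lines were compared in DMSO, without DOX. In SW620, 19 of 21 sterol members were lower than in HT-29 iZEB1 and 2 were higher, with a median of -0.85. Of the fatty acid members 5 were higher and 4 lower, with a median of 0.17. Over 19107 genes 40.1% were called higher and 36.5% lower, with a median of 0.060, which was 0.18 with library totals. Line and culture cannot be told apart here. The epithelium markers summed to 6242 to 6679 CPM in SW620 against 9190 to 10390 CPM. Of the 10 markers 7 were called lower and 3 higher in SW620, and their part in the result was not tested. SQLE stood at 600, 543 and 614 CPM in HT-29 iZEB1 and at 73.2, 72.4 and 78.8 CPM in SW620, 7.83-fold lower (log2 -2.97, SE 0.060, adjusted p = 1.68e-23). INSIG1, which retains SREBP precursors, stood at 119, 103 and 128 CPM against 22.2, 21.3 and 23.4 CPM, 5.24-fold lower. Both genes lay far below the HT-29 iZEB1 range in all SW620 libraries. TM7SF2 was 3.57-fold, HMGCS1 3.05-fold and IDI1 2.39-fold lower, and SREBF2 1.56-fold lower. PMVK and FDPS, 1.17-fold and 1.14-fold lower, did not pass with library totals (adjusted p = 0.232 and 0.377).

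STARD4 was higher in SW620 (log2 0.54, SE 0.096, adjusted p = 1.9e-05). EBP was 1.12-fold higher (adjusted p = 0.0404), but failed without any one of the 6 libraries (adjusted p from 0.0701 to 0.299) and with no filter on low counts (0.265). Differences in the fatty acid arm ran both ways. ACSS2 stood at 159, 165 and 147 CPM in SW620, 6.47-fold higher (log2 2.69, SE 0.076, adjusted p = 1.51e-20). FADS1, the Δ5 desaturase (chromosome 11, 61799625 to 61829318, minus strand), stood at 4.11, 5.88 and 5.29 CPM in HT-29 iZEB1 and at 171, 183 and 194 CPM in SW620, 35.8-fold higher. Its neighbour FADS2 (chromosome 11, 61792980 to 61867354, plus strand) had 15, 17 and 24 counts in HT-29 iZEB1 and 1047, 1126 and 1051 in SW620, 51.6-fold higher. The pair makes polyunsaturated fatty acids, and shares 490 exonic bases on opposite strands. FASN was 1.32-fold and ACLY 1.13-fold higher in SW620, and ACLY failed without SW620 DMSO replicate 3 (adjusted p = 0.0606) and with no filter on low counts (0.0748). Against these, ELOVL6 was 3.40-fold, ACACA 2.70-fold, SCD 2.07-fold and SREBF1 1.40-fold lower.

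The neighbours of the desaturases in the pathway, FADS3 and ELOVL5, were looked at after the FADS1 and FADS2 values were seen. FADS3, the third gene of the cluster, had 511, 518 and 522 counts in HT-29 iZEB1 and, in SW620, 1969, 1893 and 1889. ELOVL5, the elongase that acts between the FADS2 and FADS1 steps, had 0 counts in all 3 libraries with DMSO alone and 5700, 5750 and 6401 in SW620. Against a floor of 3 counts over the group, it was at least 5360-fold higher. In HT-29 iZEB1 with DOX and DMSO it had 1, 6 and 0 counts.

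**Figure D4:**
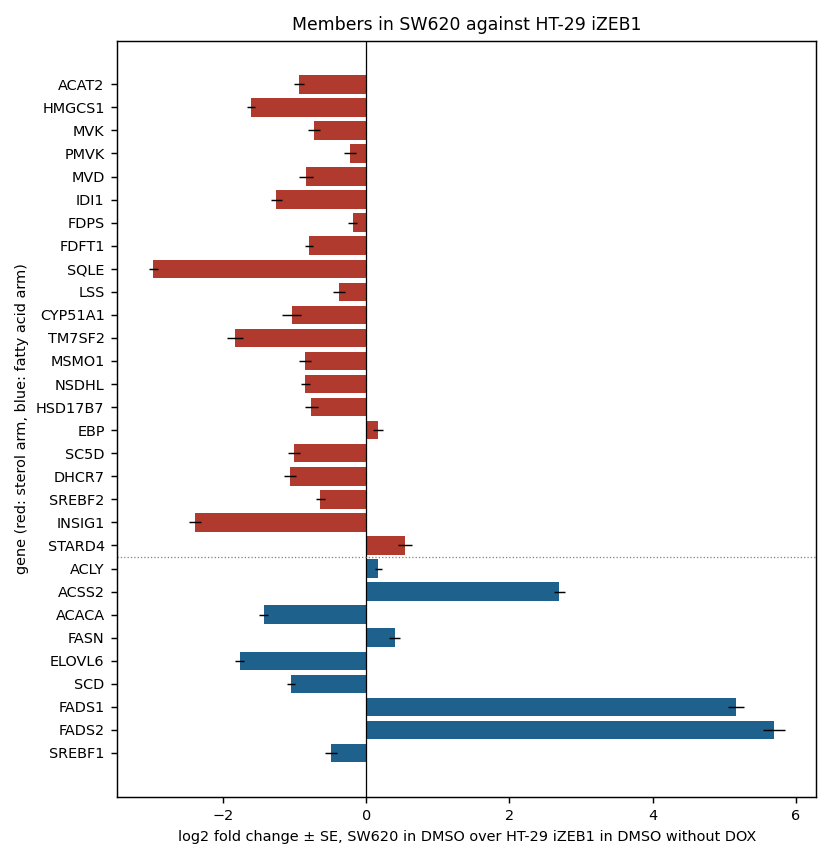
Log2 fold change (horizontal axis, bars from 0, with SE) of the 30 genes (rows) in SW620 with DMSO against HT-29 iZEB1 with DMSO alone, 3 libraries in each group. Red bars are the sterol arm, where all but EBP and STARD4 point left, down to -2.97 for SQLE. Blue bars are the fatty acid arm, which runs from -1.77 for ELOVL6 to 5.69 for FADS2.

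Lists of neighbouring pathways were read from the same fits, and up to 4 called genes are named from each. With DOX in DMSO, where 19.2% of all genes were called higher and 21.1% lower, 4 of 7 LXR targets and receptors rose and 3 did not pass. LXR is the nuclear receptor that responds to oxysterols. ABCA1, which exports cholesterol, stood at 7.28, 8.11 and 7.83 CPM with DMSO alone and at 16.0, 18.7 and 20.52 CPM with DOX, 2.39-fold higher (adjusted p = 7.41e-08). SMPDL3A was 2.32-fold, ABCG1 1.76-fold and NR1H3 1.18-fold higher. PDSS1, a prenyl synthase of ubiquinone making, fell 1.76-fold and SCARB1, the HDL receptor, fell 1.54-fold. SOAT1, which esterifies cholesterol, rose 2.38-fold. Of 9 uptake and transport genes 3 rose and 3 fell, of 11 isoprenoid genes 1 rose and 3 fell, and of 9 genes of SREBP processing 3 rose and 2 fell, among them SCAP at 1.21-fold lower (adjusted p = 0.0247). Several of these counts are near or below the shares over all genes. Of 15 further fatty acid genes 2 rose and 6 fell, led by the elongase ELOVL7 at 3.04-fold lower, and of 9 glycerolipid genes 1 rose and 2 fell. Of 15 fatty acid oxidation genes 8 rose, ACADS by 1.37-fold among them, and 1 fell.

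In the libraries labelled DOX and RepSox, set against DOX and DMSO, 5 of 7 LXR genes were lower (25.5% of all genes), SMPDL3A 3.61-fold and ABCA1 2.99-fold, ABCA1 at 6.07, 6.78 and 5.76 CPM. ELOVL7 was 2.36-fold and PDSS1 2.28-fold higher, and SCARB1 1.94-fold higher. Of 15 oxidation genes 9 were lower and 2 higher, led by SLC25A20, the carnitine carrier of mitochondria, at 2.75-fold lower. With RepSox alone, where 12.8% of all genes fell, 4 of 7 LXR genes fell, ABCA1 by 1.55-fold, and 7 of 15 oxidation genes fell, SLC25A20 by 2.21-fold, from 14.4, 15.1 and 14.3 CPM to 7.04, 6.07 and 6.79 CPM. INSIG2, the second INSIG gene, was 1.70-fold lower in the first of these comparisons and 1.56-fold lower in the second. In SW620 6 of 15 oxidation genes fell with RepSox, against 9.24% of all genes, SLC25A20 by 1.24-fold, and the fall of SLC25A20 differed from that in HT-29 iZEB1 (log2 0.83, SE 0.13, adjusted p = 7.65e-05). ABCA1 had 6 counts in all over the SW620 DMSO libraries, against 822 over those of HT-29 iZEB1 without DOX, and all 7 LXR genes were lower in SW620, as were 36.5% of all genes.

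**Figure D5:**
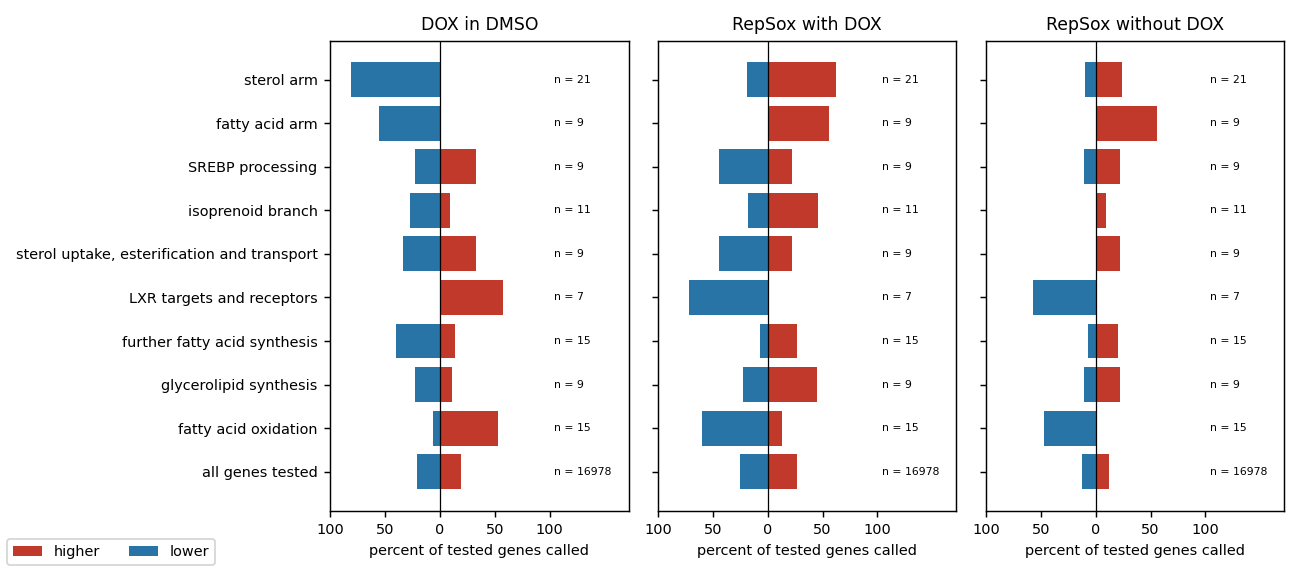
Percent of the tested genes of each list (rows, with the number tested) called higher (red, to the right) or lower (blue, to the left) in 3 comparisons in HT-29 iZEB1, with all genes tested in the last row. With DOX in DMSO, 4 of 7 LXR genes and 8 of 15 fatty acid oxidation genes were higher, and 1 oxidation gene was lower. In both arms 0 members were higher there. In both RepSox comparisons the LXR and oxidation rows extend more to the lower side and the arms more to the higher side. Of the sterol arm, 4 members with DOX and 2 without it were lower with RepSox.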

How the data were processed

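The authors deposited 1 table of raw counts, whole numbers of reads per gene symbol with 1 column for each of the 18 libraries. Per the submitters' processing notes, FastQC 0.11.9, HISAT2 2.2.0, featureCounts 2.0.0, DESeq2 1.34.0 and the build GRCh38.p13 were used. The strand setting is not given in the sources used here, nor is the annotation. Library totals were 36511596 to 39792807 counts.

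Groups came from the labels. Counts were tested with edgeR 4.0.16 in R 4.3.3 (TMM scaling, filterByExpr with a minimum count of 10, quasi-likelihood F test, Benjamini-Hochberg adjustment over all genes tested, called below 0.05). Comparisons within HT-29 iZEB1 used its 12 libraries (16978 genes), RepSox in SW620 its 6 (17147 genes), and comparisons between lines all 18 (19107 genes). The SE of a log2 fold change was its size divided by the square root of F. CPM used TMM-scaled library sizes over all 18 libraries; per kilobase values divide by exonic length in GENCODE 29 on GRCh38, matched by symbol, which also gave gene coordinates. The scripts were tested on simulated data.

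All 30 members could be named. Of further lists, up to 4 called genes of largest change reaching 5 CPM in one of the groups could be named per comparison. The members are defined by symbol alone, with no threshold on a measured value, but they and the further lists were chosen with earlier results of these data known. Replicates differed by more than sampling noise, with a chi-square per degree of freedom of 3.93 to 42.6 over genes with at least 20 summed counts. Alternatives were RLE scaling, library totals, no filter, DESeq2 1.42.0, other sets of libraries, a replicate block and leaving out each library.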

Additional observations from a re-analysis of the deposited data

Results flagged for a closer look

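The response to RepSox differed with and without DOX, by the interaction test, in 12 members. In log2 units the difference was 0.60 for ACAT2, 0.37 for HMGCS1, 0.82 for MVK, 0.27 for FDFT1, 0.35 for SQLE, 0.47 for HSD17B7, 0.87 for EBP and 0.60 for DHCR7 in the sterol arm. In the fatty acid arm it was 0.38 for ACACA, 0.49 for FASN, 0.49 for ELOVL6 and -0.46 for ACSS2. Over all genes 13% were positive and 9.61% negative by this test. The call of FDFT1 was lost with library totals (adjusted p = 0.0646) and without single libraries (0.0592 to 0.0828). The libraries labelled DOX and RepSox, which enter each of these values, had 16.0 ± 1.4 CPM of ZEB1 (SD, n = 3), against 378 ± 7.0 CPM with DOX and DMSO.

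The response to RepSox also differed between SW620 and HT-29 iZEB1 without DOX in 4 members, by the test of the difference. It was lower in SW620 by log2 values of -0.34 for SQLE, -0.42 for LSS, -0.37 for ACSS2 and -0.39 for ELOVL6. Over all genes 4.99% were lower and 5.39% higher by this test, and the calls of LSS and ACSS2 were lost without single libraries (adjusted p from 0.0508 to 0.0872 and from 0.0628 to 0.0723).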

How the results depend on the processing

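Of 535 alternative values for 40 counts, 477 stayed within 1.5 times the main count, and no called fold change of a member changed sign under any alternative run. With RLE scaling no member's call changed. With DOX in DMSO, 1 sterol member instead of 0 was called higher with library totals, 1 with no filter and 0 to 1 when a library was left out. With RepSox and DOX, fatty acid members called lower went from 0 to 2 with library totals, 1 with no filter and 0 to 1 without a library, and sterol members called lower ran from 2 to 4. With RepSox alone, 1 fatty acid member instead of 0 was called lower when only the compared groups were fitted. In that fit the sterol members FDPS and LSS were also called higher. With no filter LSS was called higher (adjusted p = 0.0232) and NSDHL was not (0.0575). Sterol members called higher ran from 2 to 4 without a library.

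DOX under RepSox depended most on the setting. Genes called went from 81 to 584 with no filter and 293 with DESeq2, and ran from 27 to 1670 without a library. Sterol members called lower went from 0 to 7 with no filter, 5 with DESeq2, 1 with the replicate block and 1 with the compared groups only, and ran from 0 to 10. Fatty acid members called lower went from 1 to 2 with no filter and 2 with DESeq2, and ran from 0 to 3. For the interaction, sterol members called negative ran from 0 to 1.

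With RepSox in SW620, fatty acid members called lower went from 0 to 1 with library totals and ran from 0 to 1, and those called higher went from 1 to 2 with no filter and ran from 1 to 2. Between lines, sterol members called higher in SW620 went from 2 to 1 with no filter and stayed at 1 without any one library. For the line difference in response, sterol members called lower went from 2 to 4 with no filter and 4 with the compared groups only, and ran from 1 to 2. Fatty acid members called lower ran from 1 to 2, and genes called went from 1982 to 3016 with the compared groups only. The cause of these changes was not tested.

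Deviations of replicates with the same number went together in some pairs and apart in others. Their correlations ran from -0.348 to 0.233, and 7 of 33 pairs were over 0.1. The replicate block changed 1 call, DHCR7 with DOX under RepSox (adjusted p = 0.0416). FADS2, with 15 to 38 counts in HT-29 iZEB1 libraries, is the member whose treatment effects depth limits most.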
